A study of Homo sapiens with 15 samples.

Results

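The methylation that was left after knockdown was compared between HCT116 cells in which UHRF1 or DNMT1 had been targeted. The comparison used the 5 Knockdown libraries of the 15 whole-genome bisulfite libraries in the series. They were chosen by their label as Knockdown, and the pattern of what remained was set beside the level by subtracting from each library its own genome-wide mean. HCT116 is a human colorectal carcinoma line of epithelial cells. In all 5 populations doxycycline induced an shRNA, a short hairpin RNA, directed at the 3′ untranslated region of UHRF1 or DNMT1. The shUHRF1 group held the clones Cl.3, Cl.6 and Cl.9, each grown from a single cell, and Cl.9 is the clone that the study's methods describe as chosen for deep loss of methylation. The shDNMT1 group held R1 and R2, replicates of a bulk population that was not cloned. Knockdown cells had received 10 ng/mL doxycycline for 14 days, and the Baseline library of each population came from 14 days without it. The bulk populations also sat in their own count table, so effects of the shRNA, of cloning and of the table cannot be told apart. Cl.9 sat in a table apart from that of Cl.3 and Cl.6, so its clone and its table cannot be told apart either. The files hold no RNA or protein levels, and how far either protein was depleted was not checked. Nothing in the labels says whether R1 and R2 came from separate cultures, so p-values measure only the spread between these libraries.

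After replication the new DNA strand lacks methylation, and a CpG is methylated on one strand only. UHRF1 binds such hemimethylated CpGs through its SRA domain and helps to bring DNMT1, the maintenance methyltransferase, which methylates the new strand. Where either fails, methylation is diluted with each cell division. In cancer cells the passive loss is known to be greatest at isolated CpGs in late-replicating, partially methylated domains, whereas gene bodies and early-replicating highly methylated domains keep their methylation better.

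The share of methylated reads at a CpG is called its methylation level, mC. The libraries held 315732617 (Cl.3) to 590592161 (Cl.9) reads at CpGs, with a median depth of 11 reads in Cl.3, 13 in Cl.6, 20 in Cl.9 and 18 in both R1 and R2. Levels were averaged over the 22679678 CpGs with at least 5 reads in all 5 libraries (77.1% of positions on chromosomes 1 to 22, X and Y). A library's share of methylated reads, pooled over all CpGs, was known to within 0.00534 percentage points or better by its Wilson 95% interval. That interval covers counting error only and treats each read at each CpG as independent. It does not apply to the mean mC used below, which in Cl.3 was 63.3% beside a pooled share of 62.5%. R1 and R2 were close to each other, with a mean chi-square of 3.37 per 100 kb window against 35.5 or more in every other pair. Their counts were not copies, since methylated and covering reads were both equal at 1.33% of the CpGs averaged. The chi-square also treats reads at each CpG as independent, so it cannot show whether R1 and R2 were technical replicates.

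More methylation remained in each shUHRF1 clone than in either shDNMT1 population. Mean mC was 63.3% in Cl.3, 57.7% in Cl.6 and 44.1% in Cl.9, and 40.5% in R1 and 39.7% in R2. The groups did not overlap, but Cl.9 lay much nearer to the bulk populations than to Cl.3. At Baseline the same CpGs held 75.6%, 76.5% and 73.4% in the clones and 75.2% in each of R1 and R2. The mean over shUHRF1 clones was 55.03 ± 9.88% (SD, n = 3) and that over shDNMT1 populations 40.1 ± 0.583% (SD, n = 2), a difference of 15.0 points. The exact permutation test (two-sided, 10 splits of 3 against 2) gave p = 0.2, the smallest value the design allows, so no value per library can pass 0.05. Leaving out Cl.9 raised the difference to 20.4 points and leaving out Cl.3 lowered it to 10.8 points. Relative to its own Baseline each population kept 83.7%, 75.5% and 60.1% in Cl.3, Cl.6 and Cl.9, against 53.8% in R1 and 52.7% in R2.

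The groups differed in how many CpGs stayed fully methylated, while their shares of fully unmethylated CpGs overlapped. To hold depth equal, the expected outcome of drawing 5 reads without replacement from each CpG was computed. All 5 reads were methylated at 33.1%, 23.2% and 11.8% of CpGs in Cl.3, Cl.6 and Cl.9, against 5.07% in R1 and 4.71% in R2. None of the 5 was methylated at 17.4%, 18.5% and 26.3% of CpGs in the clones and at 21.4% and 21.9% in the bulk populations. The exact permutation p, two-sided, was 0.2 for the fully methylated and 1 for the fully unmethylated shares. Cl.9 thus held both more fully methylated and more fully unmethylated CpGs than R1 and R2 at a similar mean. CpGs with a mixture of methylated and unmethylated reads made up 49.5%, 58.3% and 61.9% in the clones, against 73.5% and 73.4% in the bulk populations, again without overlap.

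**Figure D1:**
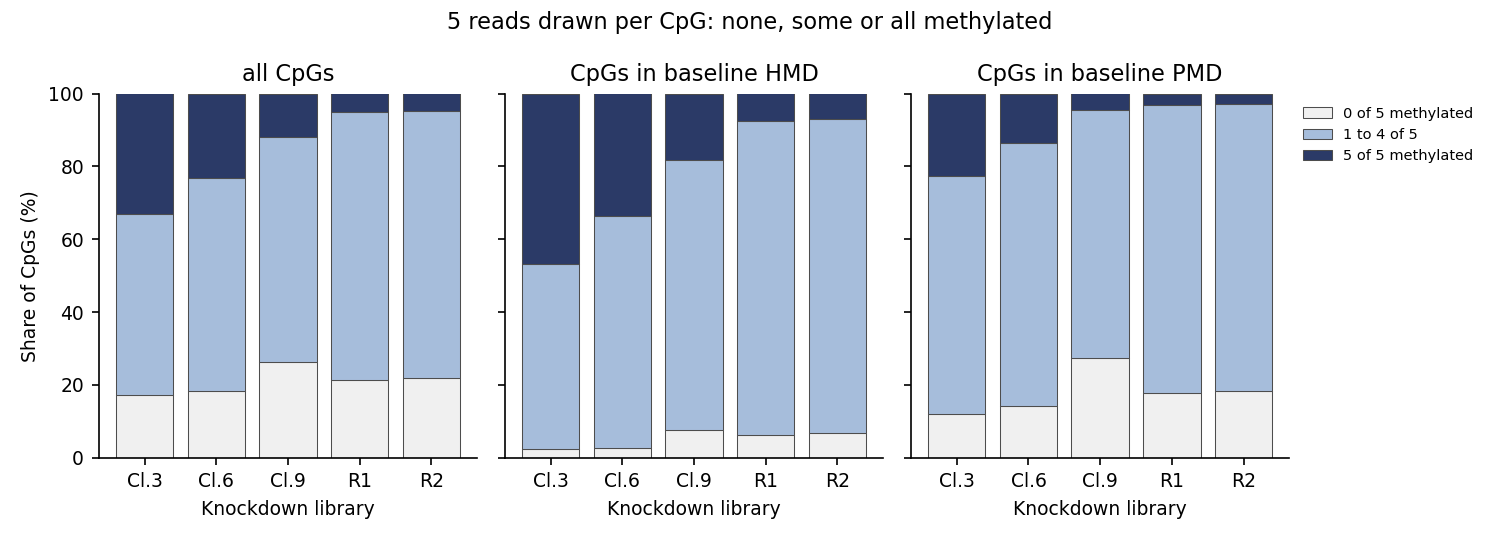
Share of CpGs (%, vertical axis) at which 0, 1 to 4 or all of 5 drawn reads were methylated, for each Knockdown library (horizontal axis), over all CpGs, CpGs in baseline highly methylated domains (HMD) and CpGs in baseline partially methylated domains (PMD). The dark segment is 5.07% or less in R1 and R2 over all CpGs and 11.8% or more in each clone, while the pale segment overlaps between the groups.

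Fully methylated CpGs were also more frequent in the clones inside each domain class. Domains were those the authors called in the Baseline libraries, kept where all 5 Baseline lists shared them, as highly methylated domains (HMDs, 12769888 CpGs) and partially methylated domains (PMDs, 1481519 CpGs). PMDs were taken outside regions called low-methylated or unmethylated, and held 6.53% of the CpGs measured. In HMDs all 5 drawn reads were methylated at 46.9%, 33.6% and 18.1% of CpGs in Cl.3, Cl.6 and Cl.9, against 7.44% in R1 and 6.91% in R2. In PMDs they were at 22.7%, 13.7% and 4.51% of CpGs in the clones, against 3.10% and 2.85% in the bulk populations, so Cl.9 lay only just above. There none of the 5 was methylated at 12.1%, 14.3% and 27.4% of CpGs in the clones and at 17.7% and 18.4% in the bulk populations, so that Cl.9 alone lay above both bulk populations.

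The contrast between domains was steeper in the clones. Mean mC in HMDs was 80.9%, 74.6% and 59.7% in Cl.3, Cl.6 and Cl.9, against 51.8% in R1 and 50.8% in R2, with every clone above both bulk populations. In PMDs it was 59.2%, 51.9% and 34.7% in the clones, against 38.1% and 37.2% in the bulk populations, and here the groups overlapped because Cl.9 lay below R1 and R2. Cl.9 had also started lower than R1 and R2 in PMDs. The PMD level fell short of the HMD level by a difference of -23.1 ± 1.76 points in the clones, against -13.6 ± 0.128 in the bulk populations. The groups did not overlap (exact permutation p = 0.2, two-sided), and this order held as a ratio and in log odds. The ratio of PMD to HMD level was 0.670 ± 0.0794 in the clones, against 0.734 ± 0.00128 in the bulk populations. This spread among the clones was wider than the difference of -0.0647 between the groups. Cl.3 lay only just below the bulk populations in this ratio. At Baseline the difference in points between PMDs and HMDs overlapped between the groups (exact permutation p = 0.6). At Knockdown the PMD minus HMD difference shrank at CpGs with a baseline mC of at least 0.85 in all 5 populations. It was then -5.89 ± 3.74 points in the clones, against -1.58 ± 0.0148 in the bulk populations. The difference between the groups was -4.31 points (p = 0.2, exact permutation).

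**Figure D2:**
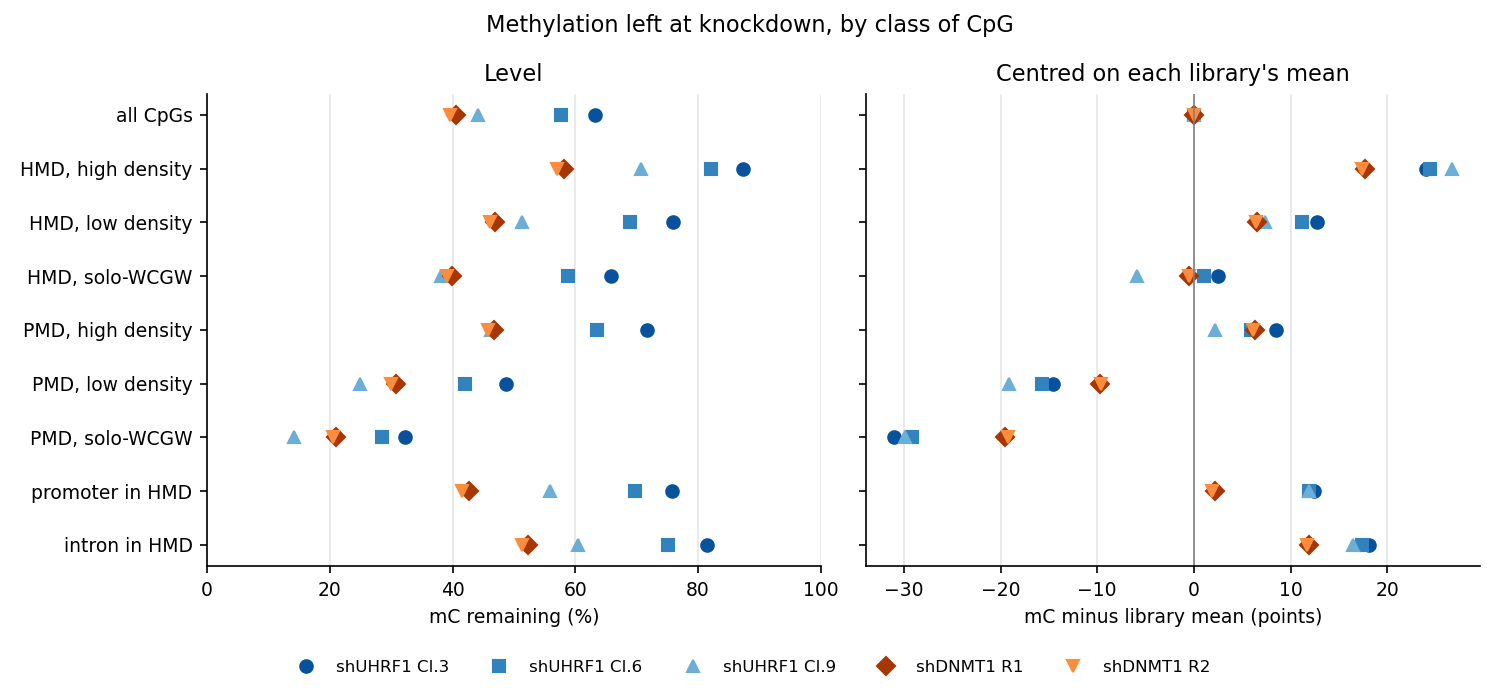
Mean mC left at Knockdown (%, left) and the same value minus the library's mean over all CpGs (percentage points, right) for classes of CpG, with 1 point per library. In the left panel Cl.9 lies above R1 and R2 in HMDs at high density and below them at PMD solo-WCGW CpGs, and in the right panel promoter CpGs in HMDs show 2 separate clusters by shRNA.

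CpG density ordered the remaining methylation in every library. CpGs were called low-density when no other CpG lay closer than 20 bp, and 57.4% of those measured were. They held 58.2%, 52.3% and 36.9% in Cl.3, Cl.6 and Cl.9, against 36.2% in R1 and 35.4% in R2, while high-density CpGs held 70.2%, 65.1% and 53.7% in the clones, against 46.3% and 45.3%. Low minus high was -13.8 ± 2.59 points in the clones, against -9.99 ± 0.123 in the bulk populations, without overlap (exact permutation p = 0.2, two-sided). The difference between the groups was -3.86 points and was -2.38 points without Cl.9. As a ratio of low to high the groups overlapped (0.773 against 0.782, p = 1 by exact permutation), and at CpGs with a baseline mC of at least 0.85 the groups overlapped in points too (a difference of -1.39 points, p = 0.8, exact permutation), with a ratio higher in the clones by 0.0185 (exact permutation p = 0.8). In log odds the low-density CpGs were further below in the clones without overlap, by a difference of -0.164 over all CpGs and -0.245 at high baseline mC (p = 0.2 for both, exact permutation), so the order of the groups depended on the scale.

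At the closest spacing, CpGs 2 bp apart with a baseline mC of at least 0.85 held 94.6%, 90.8% and 85.03% in Cl.3, Cl.6 and Cl.9, against 69.7% in R1 and 68.7% in R2. At a spacing of 60 bp they held 80.8%, 72.9% and 54.5% in the clones, against 49.5% and 48.7% in the bulk populations. The fall from 2 to 60 bp was 13.8, 18.0 and 30.5 points in the clones, against 20.2 and 20.0 points in the bulk populations. These falls overlapped between the groups (exact permutation p = 1), since the bulk values lay between those of Cl.6 and Cl.9.

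Solo-WCGW CpGs are flanked on both sides by A or T and lie more than 35 bp from any other CpG, and 3073248 were measured. They held 44.7%, 39.97% and 24.6% in Cl.3, Cl.6 and Cl.9, against 27.6% in R1 and 27.04% in R2. The levels overlapped, since Cl.9 had the lowest of all 5 libraries. Cl.9 had also started lower than R1 and R2 at these CpGs. Relative to the library mean they lay at -18.6 ± 0.897 points in the clones, against -12.7 ± 0.188 in the bulk populations, without overlap (exact permutation p = 0.2), but as a ratio to that mean the groups overlapped (0.652 against 0.682, p = 1 by exact permutation). They also overlapped at a baseline mC of at least 0.85, with -11.7 ± 4.21 points in the clones, against -8.78 ± 0.112 (exact permutation p = 0.6). With G or C on both sides, CpGs equally far from others held more in every library, namely 67.9%, 61.5% and 47.4% in the clones, against 43.5% and 42.7% in the bulk populations.

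The stretches below, on the forward strand of hg38, are examples of such isolated sites, picked by depth. They are the 3 solo-WCGW CpGs in introns in shared HMDs with the most reads in the shallowest library, and the capitals mark the CpG with its A or T flanks. Their 65 to 77 reads in Cl.3 lay far above its median depth of 11, so they need not be typical. The first and the third lie in introns of genes that do not code for protein, and the second in an intron of FHIP2A.
chr17:45576396-45576425: aaacaattaatgcACGAggtcctggaggtt
chr10:114853028-114853057: taaaggtaactacTCGTcttcatgctcatg
chr17:45580137-45580166: tacctcacttgtaACGAtcagaaattatac
At the first, 30 of 77 reads were methylated in Cl.3, 28 of 75 in Cl.6, 19 of 113 in Cl.9, 19 of 100 in R1 and 27 of 124 in R2. At the FHIP2A site the counts were 48 of 70, 44 of 66, 36 of 103, 36 of 74 and 37 of 75 in the same order. At both, Cl.9 held the lowest share, below R1 and R2. The third site kept 84.6%, 67.5% and 59.4% in the clones, against 38.6% and 48.4% in the bulk populations, with no overlap, so single isolated CpGs differed from one another.

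Promoters reached from 1 kb before the 5′ end of a protein-coding gene to 100 bp inside it. CpG-rich promoters are unmethylated in most cells, and all promoter CpGs together held only 24.6%, 22.4% and 17.7% in Cl.3, Cl.6 and Cl.9, against 14.04% in R1 and 13.7% in R2. Their direction depended on the scale. Centred on the library mean they were lower in the clones by a difference of -7.23 points (exact permutation p = 0.4), whereas as a ratio to that mean they were higher by 0.0473 (p = 0.2, exact permutation). Without Cl.3 the centred difference was -4.62 points, and without Cl.9 it was -10.8 points. Exons differed by 1.12 points, introns by 0.893 points and intergenic CpGs by -1.28 points after centring, each without overlap (exact permutation p = 0.2), and among these only exons stayed apart as a ratio. Leaving out Cl.9 lowered the exon difference to 0.629 points.

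Methylated promoters differed between the groups on each scale. The 130802 promoter CpGs inside shared HMDs held 75.7%, 69.7% and 56.0% in Cl.3, Cl.6 and Cl.9, against 42.6% in R1 and 41.6% in R2, after 89.96 to 91.9% at Baseline. Every clone was above both bulk populations. After centring they stood at 12.1 ± 0.322 points in the clones, against 2.04 ± 0.176 in the bulk populations, and as a ratio to the library mean at 1.22 ± 0.0393 and 1.05 ± 0.00365 (exact permutation p = 0.2 for both, two-sided). The 3 centred clone values lay close together although their levels spanned a wide range.

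The promoter contrast remained when CpGs were matched on a baseline mC of at least 0.85 in all 5 populations. The comparisons that use these CpGs, here and in other paragraphs, were chosen after values were seen, except that of low with high density in points. Promoter CpGs (92213) then held 84.6%, 78.1% and 64.5% in Cl.3, Cl.6 and Cl.9, against 49.1% in R1 and 47.9% in R2. Intron CpGs (6711418) held 86.1%, 79.5% and 64.9% in the clones, against 55.7% and 54.7%. Promoter minus intron was -1.45, -1.33 and -0.365 points in the clones, against -6.65 and -6.75 points in the bulk populations. The groups did not overlap in points, in the ratio (0.987 ± 0.00645 against 0.879 ± 0.00293) or in log odds (exact permutation p = 0.2 for each). Before knockdown the same difference lay between -0.268 and 0.123 points in the 5 populations.

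Around the 5′ ends of protein-coding genes, highly methylated CpGs of the bulk populations showed a deeper dip than those of the clones. In the 500 bp bin centred 750 bp upstream, mC was 84.4%, 77.8% and 64.3% in Cl.3, Cl.6 and Cl.9, against 47.5% in R1 and 46.4% in R2. Compared with the bin centred 9750 bp downstream, the difference was -2.07, -2.21 and -1.43 points in the clones and -7.39 and -7.34 points in the bulk populations. In a second dip, centred 1250 bp downstream, it was -4.83, -4.23 and -7.39 points in the clones, against -8.45 and -8.27 points in the bulk populations. In neither bin did the groups overlap, although Cl.9 came within about 1 point of R2 in the second (exact permutation p = 0.2 for both). In the bin centred 250 bp downstream the differences were small in all libraries, at -0.538 to -0.454 points in the clones, against -1.31 and -0.985 points in the bulk populations.

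**Figure D3:**
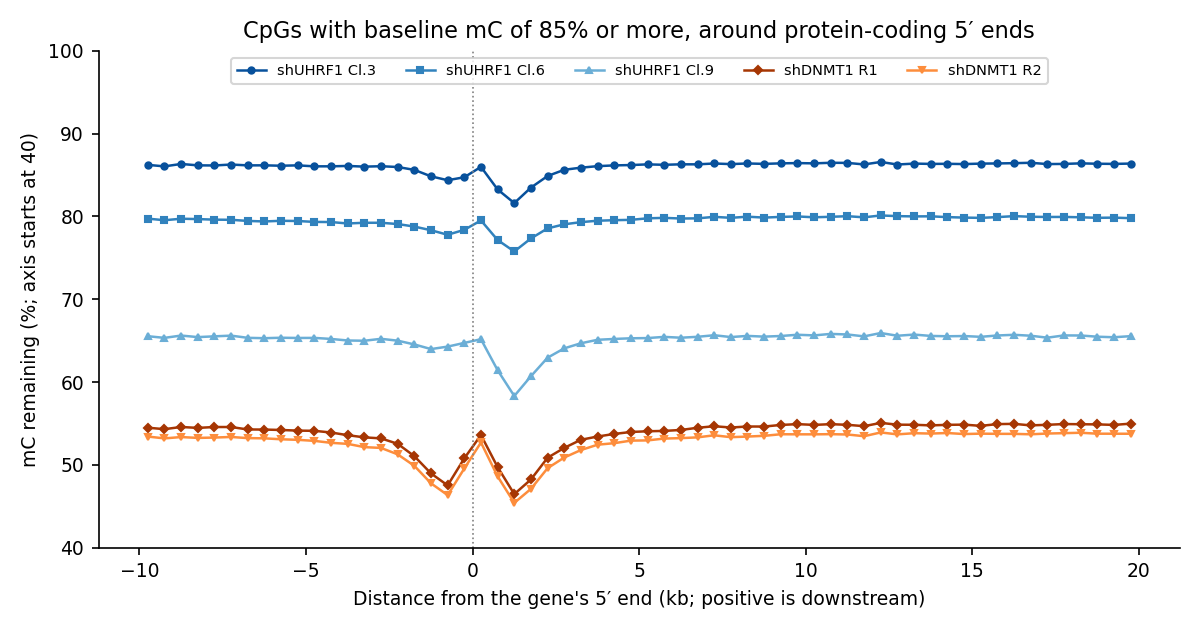
Mean mC left at Knockdown (%, vertical axis from 40) at CpGs with a baseline mC of 85% or more in 500 bp bins, by distance from the 5′ end of protein-coding genes (kb, positive downstream), 1 line per library. The lines of R1 and R2 dip by over 7 points upstream of the 5′ end, where those of the clones dip by 1.43 to 2.21 points.

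The number of neighbouring CpGs separated the groups further. At highly methylated promoter CpGs with no other CpG within 100 bp, mC was 80.9%, 72.9% and 55.9% in Cl.3, Cl.6 and Cl.9, against 49.3% in R1 and 47.8% in R2. With 10 to 14 neighbours it was 88.1%, 82.9% and 72.5% in the clones, against 49.2% and 47.8% in the bulk populations. The gain with neighbours was thus 7.25, 10.04 and 16.6 points in the clones, against -0.0863 and -0.0705 points in the bulk populations, without overlap (exact permutation p = 0.2). In introns the same gain was 6.49, 8.42 and 14.0 points in the clones, against 4.51 and 3.99 points in the bulk populations, and in exons 7.01, 9.42 and 14.7 points in the clones, against 6.59 and 6.05 points. In points the clones gained more in all 3 annotations, and these gains were not compared on another scale. The bulk populations gained in introns and exons. In promoters they did not until 15 or more neighbours were present, where R1 stood at 55.0% and R2 at 55.1%.

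**Figure D4:**
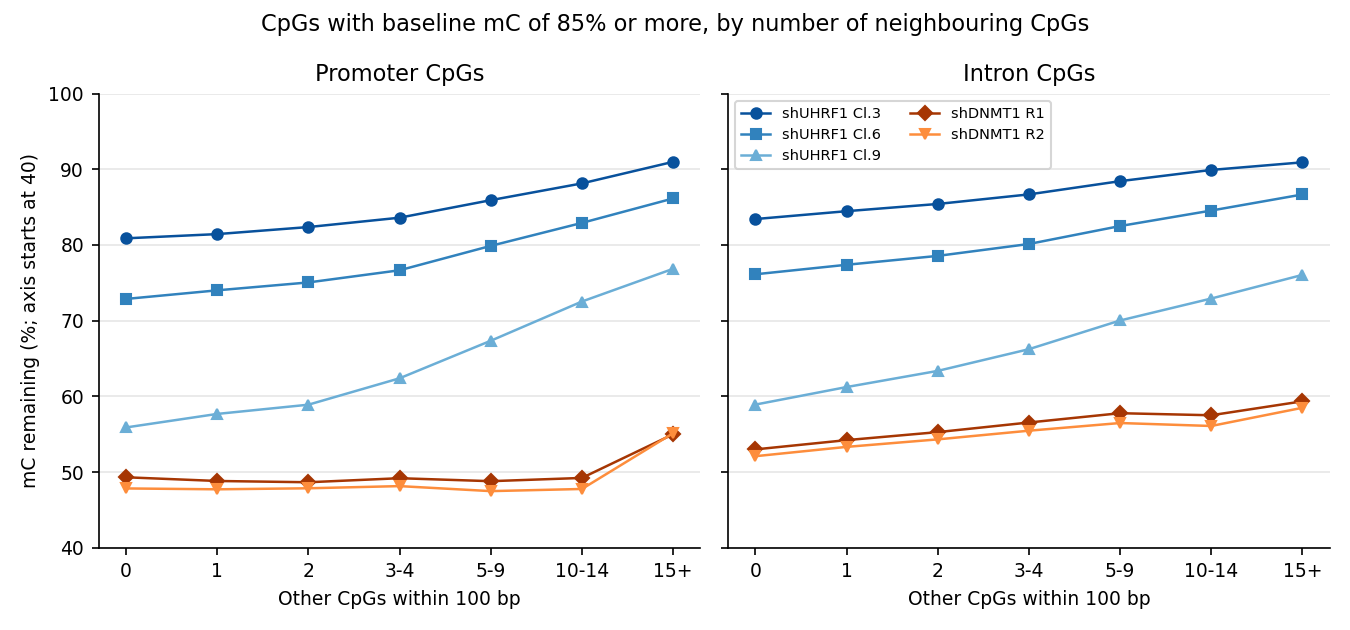
Mean mC left at Knockdown (%, vertical axis from 40) at CpGs with a baseline mC of 85% or more, by the number of other CpGs within 100 bp, in promoters (left) and introns (right), 1 line per library. The promoter lines of R1 and R2 stay between 47.5% and 49.3% up to 14 neighbours, while those of the clones rise throughout.

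Cl.9 and the bulk populations differed by only 4.00 points in mean, so their patterns are set side by side here. As this is 1 clone, no test was made. Cl.9 exceeded the mean of R1 and R2 by 15.99 points at highly methylated promoter CpGs, by 9.66 points at highly methylated intron CpGs and by 8.45 points over HMDs. It exceeded them by 7.91 points at high-density but by 1.10 points at low-density CpGs. It lay below them in some other classes, with differences of -2.77 points at solo-WCGW CpGs, -2.98 points in PMDs and -6.55 points at solo-WCGW CpGs in PMDs. Cl.9 had also started lower at solo-WCGW CpGs and in PMDs. Relative to its own Baseline it kept 41.6% at solo-WCGW CpGs, against 44.7% and 43.8% in R1 and R2. In PMDs it kept 48.6%, against 51.2% and 50.04%. The direction also changed with the level before knockdown. CpGs with a mean baseline mC of 90 to 100% kept 62.8% in Cl.9 against 54.6% and 53.5% in R1 and R2, but those of 70 to 80% kept 26.02% against 33.2% and 32.4%, and those of 30 to 40% kept 9.02% against 14.5% and 14.2%.

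Regions were then tested one by one, in 100 kb windows, promoters and gene bodies, which began 1 kb inside the gene. In level, edgeR's quasi-likelihood test called no window of 28389 after Benjamini-Hochberg adjustment (0% in either direction), while 4465 windows were higher in shUHRF1 and 0 lower at an unadjusted p under 0.05. limma on log2 ratios called 0 as well, with 1960 higher at an unadjusted p under 0.05. Without Cl.9 edgeR called 26841 windows higher, so the count rested on Cl.9. After centring, limma called 7299 windows higher in shUHRF1 (28.3% of 25802) and 4600 lower (17.8%). Since the library means differed by 15.0 points, a region with equal levels in both groups has a negative centred difference of that size. A region called lower therefore need not hold less methylation in the clones. Called higher windows held a median of 78.1%, 72.1% and 58.5% in Cl.3, Cl.6 and Cl.9, against 50.3% in R1 and 49.4% in R2, and called lower windows 33.1%, 27.6% and 17.1% in the clones, against 22.03% and 21.6%.

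The windows called higher lay mostly in shared HMDs. Of them 6959 were at least 50% HMD, and of those called lower 0 were, against 15203 of all 25802 tested. Few windows called lower were mostly shared PMD. At least 50% PMD was found in 418 of them (9.09%), against 4.79% of all tested, and their median PMD share was 11.9%. The calls were bound to the scale. Centring on the median window gave 866 higher and 4994 lower, an offset in log odds gave 3342 and 4044, and a ratio to the library mean gave 0 in both directions with 1098 and 354 at an unadjusted p under 0.05. Leaving out R1 or R2 also gave 0, and the Baseline libraries gave 81 and 0. The sign of the ratio was positive in 5044 of the 7299 windows called higher, and negative in 4599 of the 4600 called lower. Across windows the spread of levels was wider in the clones, with an SD of 19.8, 19.4 and 17.7 points in Cl.3, Cl.6 and Cl.9, against 12.8 in R1 and 12.6 points in R2. Pearson correlations of window levels were 0.974 (Cl.3 with Cl.6), 0.953 (Cl.3 with Cl.9) and 0.952 (Cl.6 with Cl.9). With R1 they were 0.982, 0.975 and 0.961 in Cl.3, Cl.6 and Cl.9. Each clone thus correlated more with R1 than with another clone, except Cl.6 with Cl.3 in Spearman correlation (0.976 against 0.975 with R1).

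Among single windows, those near the beta-globin locus on chromosome 11 stood out. The window chr11:5400001-5500000 (hg38), which holds genes of the OR51 olfactory receptor family and parts of the annotated HBE1 and HBG2 genes, kept 81.3%, 75.5% and 58.2% in Cl.3, Cl.6 and Cl.9, against 40.6% in R1 and 37.7% in R2. Its neighbour chr11:5300001-5400000 kept 80.7%, 74.4% and 59.6% in the clones, against 41.8% and 41.1%. The centred differences were 17.6 ± 1.53 points (SE, adjusted p = 0.00785) and 15.2 ± 0.868 points (adjusted p = 0.00785) by limma. At Baseline these windows were already lower in R1 and R2 (81.9 to 84.2%) than in the clones (89.96 to 92.4%), and the centred differences in change from Baseline were 8.32 and 7.46 points. The windows chr1:144900001-145000000 and chr9:41100001-41200000, also named as higher, held 9 CpGs each.

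On the lower side, a pair of adjoining windows across DOK5 on chromosome 20 were called. DOK5 encodes a docking protein of receptor tyrosine kinases. The window chr20:54500001-54600000 kept 35.2%, 30.4% and 24.8% in Cl.3, Cl.6 and Cl.9, against 34.5% in R1 and 33.7% in R2, so levels overlapped, while the centred difference was -18.9 ± 3.05 points (adjusted p = 0.00838, limma). Most of this difference is the 15.0 points between the library means. The window's group means were 30.1% in the clones and 34.1% in the bulk populations, and it was not called in level (adjusted p = 0.762, edgeR). Its neighbour gave -18.4 ± 3.27 points (adjusted p = 0.00996, limma). Over the DOK5 gene body, at 1513 CpGs, the levels were 39.7%, 32.1% and 25.1% in the clones, against 36.3% and 35.2%, with a centred difference of -18.5 ± 2.45 points (adjusted p = 0.00238, limma). Cl.3 and Cl.6 had started lower here, at 51.6% and 48.9% over the gene body at Baseline, against 64.5% in Cl.9, 64.7% in R1 and 64.9% in R2. As a change from Baseline the DOK5 gene body differed by -8.66 points and was no longer called (adjusted p = 0.0687, limma), and its windows by -8.75 points (adjusted p = 0.0495) and -9.54 points (adjusted p = 0.0813). A window in ADAMTSL3, chr15:83900001-84000000, also called lower, showed the same Baseline split, with 43.2% and 41.6% in Cl.3 and Cl.6 and 60.5% or more in the others, and lost its call as a change from Baseline (-7.75 points, adjusted p = 0.191, limma). The other windows named as lower held 6 and 12 CpGs.

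Calls among promoters were nearly all in 1 direction. In level, edgeR called 1490 of 18064 promoters higher in shUHRF1 (8.25%) and 5 lower (0.0277%). These counts rested on single libraries, with 12145 higher without Cl.9, 291 without Cl.3, 53 without Cl.6 and 0 without R1 or R2, and limma called 731. After centring, limma called 551 of 8881 promoters higher (6.2%) and 27 lower (0.304%), and 233, 263, 654, 167 and 162 higher when Cl.3, Cl.6, Cl.9, R1 or R2 was left out. The lower calls were 231 without Cl.9 and between 1 and 15 without any other library. Higher calls outnumbered lower ones also with a log-odds offset (519 and 26), as a ratio (287 and 9) and on the change from Baseline (334 and 55), and by less when centred on the median promoter (142 and 42). With that median centring, limma gave 744 higher and 880 lower at an unadjusted p under 0.05, so the balance turned there. In the Baseline libraries the same test called 0 promoters in either direction, with 307 and 122 at an unadjusted p under 0.05.

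Promoters called higher were densely methylated before knockdown. They held a median of 85.3%, 78.7% and 65.9% in Cl.3, Cl.6 and Cl.9, against 42.6% in R1 and 42.05% in R2. Their median baseline level was 95.2%, and 480 of the 531 with a Baseline value had at least 85%, beside 4316 of 8630 and a median of 85.002% over all promoters tested. At least 50% of the CpGs lay in shared HMDs in 495 of the 551, a share of 89.8% against 56.7% of all promoters tested. Their ratio of observed to expected CpGs had a median of 0.474, against 0.360 over all promoters tested, at a similar GC content of 51.0% and 50.6%. The 27 called lower had a median baseline of 53.6% and an observed to expected ratio of 0.237, and 2 of them lay mostly in HMDs.

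Over all 4323 promoters with a baseline level of at least 85%, called or not, the median was 80.01%, 73.7% and 57.7% in Cl.3, Cl.6 and Cl.9, against 49.5% in R1 and 48.3% in R2. All 3 clones lay above both bulk populations in 3285 of them (76.0%), beside 58.9% of all 17741 promoters with a Baseline value, and edgeR called 616 of them higher in level (14.2%), beside 8.25% of all promoters. Promoters with a baseline level of 20 to 85% had medians of 34.6%, 30.6% and 23.6% in the clones, against 17.8% and 17.4%. In the 6254 with a baseline level under 20% the medians were 2.46%, 2.15% and 1.29% in the clones, against 1.37% and 1.35% in the bulk populations.

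The promoter with the largest centred difference was that of TUBB6, a beta-tubulin, at chr18:12306669-12307769 (hg38, 33 CpGs). It kept 82.3%, 78.7% and 65.7% in Cl.3, Cl.6 and Cl.9, against 24.7% in R1 and 22.1% in R2, after 93.0 to 94.6% at Baseline. The centred difference was 37.2 ± 4.00 points (SE, adjusted p = 0.00279, limma). FAM174B, at chr15:92809784-92810884, kept 70.2%, 79.6% and 76.1% in the clones, against 26.0% and 25.3% in the bulk populations (34.7 ± 5.93 points, adjusted p = 0.00607, limma). At Baseline FAM174B held 91.3%, 98.3% and 93.5% in the clones, against 87.2% and 87.6%, and its change from Baseline differed by 27.6 points. OTUB1, a deubiquitinating enzyme, kept 79.2%, 88.1% and 72.05% in the clones, against 32.6% and 29.2% at chr11:63984853-63985953 (33.9 ± 4.64 points, adjusted p = 0.00315, limma). In these 3 promoters all clones lay far above both bulk populations, and in FAM174B and OTUB1 the order of the clones was not that of their genome-wide means.

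The 30-base stretches of these promoters with the most CpGs measured in all 5 libraries, outside annotated untranslated regions, are shown with CpGs in capitals, because reads over them carry the difference directly. They are on hg38, 5′ to 3′ on the strand of the gene, which is forward for TUBB6 at chr18:12307578-12307607 and OTUB1 at chr11:63985728-63985757 and reverse for FAM174B at chr15:92810693-92810722.
TUBB6: ggcCGaagCGcatttcttCGctaaCGCGCG
FAM174B: CGccctcCGcCGccccccttcacattacac
OTUB1: gccCGaagatCGctCGtgcccaggagttCG
A read is counted at each CpG it covers, so counts over a stretch are not independent. Across the 6 CpGs of the TUBB6 stretch 53 of 56 reads were methylated in Cl.3, 43 of 55 in Cl.6, 76 of 101 in Cl.9, 32 of 123 in R1 and 19 of 174 in R2. Across the 4 CpGs of OTUB1 the counts were 50 of 60, 58 of 65 and 82 of 101 in the clones and 26 of 76 and 18 of 67 in the bulk populations. The FAM174B stretch, with 3 CpGs, had 17 of 27, 25 of 35 and 42 of 53 against 5 of 28 and 6 of 21. In each stretch every clone kept more than 60% and each bulk population less than 35%.

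PCDH7, a protocadherin, kept the most in the clones among the 10 promoters named as higher, at 95.8%, 98.4% and 93.3%, close to its Baseline of 94.4 to 99.1%, against 51.1% and 47.6% in R1 and R2 (31.5 ± 4.43 points, adjusted p = 0.00329, limma). As a log2 ratio to the library mean, at 0.50, it was not called (adjusted p = 0.0748, limma). It was also among the 5 largest differences in level by edgeR (adjusted p = 3.14e-05). RHBDD1, a rhomboid protease, kept 93.6%, 83.8% and 82.6% against 39.6% and 38.0%. The others named by the same rule were MTARC1 (a mitochondrial molybdenum enzyme), SYNE3 (nesprin-3 of the nuclear envelope), AQP5 (a water channel), SHANK3 (a postsynaptic scaffold) and TNFRSF12A (the TWEAK receptor), with centred differences of 30.9 to 32.8 points (limma adjusted p = 0.00315 to 0.00578). Levels in these 5 ran from 56.7% to 89.5% in the clones and from 26.5% to 39.6% in the bulk populations, and AQP5 rested on 7 CpGs. The level test otherwise named promoters near 0, GRIPAP1, ESYT1, RCOR1 and KLF6 as higher and AMD1, IRF3, CSNK1G2 and FAM53C as lower, none above 4.69% in any Knockdown library.

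**Figure D5:**
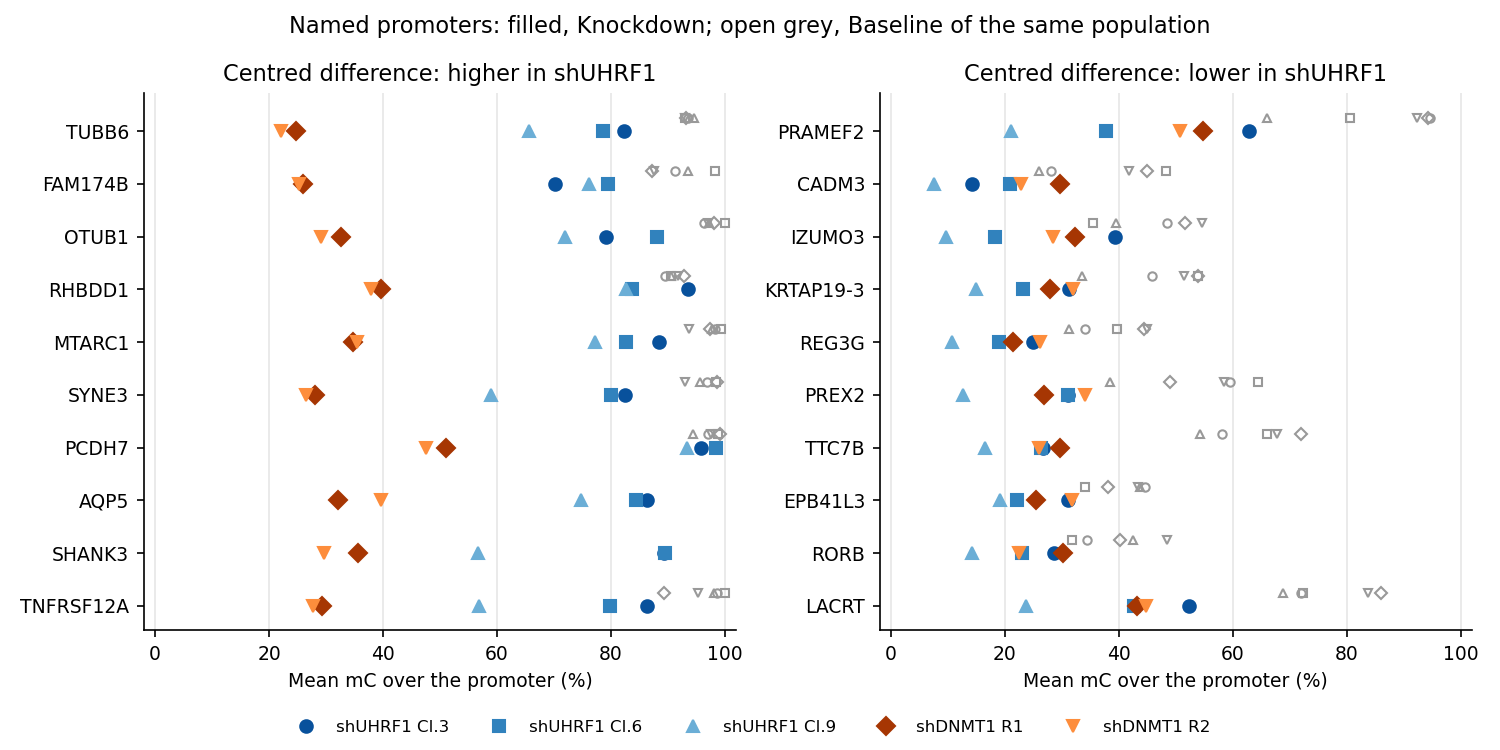
Mean mC (%, horizontal axis) of the 10 promoters with the largest centred difference in each direction, filled for Knockdown and open grey for the Baseline of the same population (not measured for AQP5 and SHANK3). On the left all clones lie above R1 and R2, whereas on the right most groups overlap in level and most Baselines are below 75%.

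Among the 10 promoters named as lower, the groups overlapped in level in all but 1. Each centred difference below includes the 15.0 points by which the library means differed. CADM3, a cell adhesion molecule, at chr1:159170609-159171709, kept 14.3%, 20.9% and 7.60% in Cl.3, Cl.6 and Cl.9, against 29.7% in R1 and 22.8% in R2, and every clone was below both bulk populations. Its centred difference was -27.0 ± 5.13 points (adjusted p = 0.0101, limma), and its Baseline was 28.1%, 48.2% and 25.9% against 45.0% and 41.9%. Its stretch on the forward strand, at chr1:159171407-159171436 with CpGs in capitals, had 15 of 34, 16 of 28 and 5 of 25 reads methylated in the clones and 25 of 33 and 19 of 29 in the bulk populations.
CADM3: cacaccCGagccCGgctggcCGagctccCG
PRAMEF2 (62.9%, 37.7% and 21.1% against 54.7% and 50.8%) and IZUMO3 are uncertain, since the 30-base stretch with the most CpGs occurs 5 times in hg38 in PRAMEF2 and 16 times in IZUMO3. KRTAP19-3, REG3G, PREX2, TTC7B, EPB41L3, RORB and LACRT had centred differences of -21.7 to -19.3 points (limma adjusted p = 0.0180 to 0.0383) at levels of 10.7% to 52.4%. In each of these 7 Cl.9 had the lowest level of the 5 libraries. As a change from Baseline only PREX2 (-20.98 points) and EPB41L3 (-19.6 points) of the 10 named as lower were still called by limma, with the others between -17.7 and -5.55 points, and 4 of all 27 promoters called lower were.

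In level, edgeR called 0 of 18714 gene bodies in either direction (0%), with 7226 higher and 0 lower at an unadjusted p under 0.05. After centring, limma called 10015 of 18195 higher in shUHRF1 (55%) and 928 lower (5.1%). The split was 1054 and 1654 when centred on the median gene body, 862 and 33 as a ratio and 6515 and 779 with a log-odds offset. It was 6426 and 257 without R1 and 5949 and 204 without R2. The largest difference was in DLX2, a homeobox transcription factor, which kept 81.8%, 80.2% and 72.9% in Cl.3, Cl.6 and Cl.9, against 26.6% in R1 and 30.4% in R2 (34.8 ± 3.17 points, adjusted p = 0.00137, limma). HOXA4, another homeobox gene, kept 88.0%, 85.1% and 82.3% against 46.8% and 38.8% (27.4 ± 4.33 points, adjusted p = 0.00370, limma). CAVIN3, RNF208 and DNASE1L2 were the others named as higher, at 27.4 to 33.6 points. After DOK5, the gene bodies named as lower were ZNF91, a KRAB zinc finger repressor of retrotransposons, with NLRP2B, FSHB and TEX13C, at -18.4 to -17.4 points. ZNF91 kept 64.9%, 42.3% and 26.5% in the clones, against 48.5% and 47.5% in the bulk populations, so its groups overlapped. Its Baselines were 82.1%, 69.7% and 63.8% in the clones, against 86.9% and 86.8%, and its change from Baseline differed by -3.50 points and was not called (adjusted p = 0.0984, limma).

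HOX cluster genes, which pattern the body axis and are often methylated in colorectal cancer, had the most promoters called after centring among 13 lists of genes. Of 28 HOX promoters tested 7 were called higher and 0 lower, with a median centred difference of 8.70 points, against 6.2% called higher and a median of 2.32 points over all promoters tested. Of the 39 HOX promoters measured, 17 had a baseline level of at least 85%. Over all promoters of that class 480 of 4316 tested were called higher, with a median of 5.74 points. HOXA5 kept 89.3%, 79.7% and 79.0% in Cl.3, Cl.6 and Cl.9, against 39.7% in R1 and 41.4% in R2 (27.1 ± 4.26 points, adjusted p = 0.00519, limma). HOXB7 kept 91.0%, 88.0% and 70.6% against 43.1% and 41.5% (25.9 ± 3.58 points, adjusted p = 0.00315, limma). The lowest was HOXC8, at -10.1 points on 5 CpGs, which turned to 7.81 points without R1.

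Germline genes, many of which promoter methylation keeps silent in somatic cells, had 4 of 20 promoters called higher and 0 lower, with a median of 10.5 points, beside 6.2% and 2.32 points over all promoters. Of the 23 measured, 17 had a baseline level of at least 85%, the class in which most promoter calls lay. TDRKH, of the piRNA pathway, kept 65.6%, 62.1% and 49.9% in Cl.3, Cl.6 and Cl.9, against 24.2% in R1 and 24.1% in R2 (20.1 ± 4.42 points, adjusted p = 0.0203, limma). BOLL, a meiotic RNA-binding protein, kept 82.4%, 88.5% and 77.4% against 42.3% and 57.0% (18.1 points, adjusted p = 0.0518, limma), so it lay apart without passing the threshold. MAGEC2 was the lowest, at -16.4 points on 7 CpGs.

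Among genes often silenced in colorectal cancer, Wnt antagonists had 1 of 7 promoters called higher and 0 lower (median 6.89 points), beside 6.2% called higher over all promoters. That one was WIF1, a secreted Wnt inhibitor, which kept 89.5%, 84.0% and 73.7% in the clones, against 57.3% in R1 and 37.8% in R2 (19.9 ± 4.82 points, adjusted p = 0.0294, limma). Next was SOX17 with 10.1 points, and APCDD1 was the lowest at -3.69 points, or 4.80 points as a change from Baseline. Other genes silenced in colorectal cancer had 1 of 17 called higher and 0 lower (median 1.74 points), from SST at -10.5 to EYA4 at 12.2 and RUNX3 at 16.5 points. RUNX3, a transcription factor, kept 86.5%, 75.8% and 73.5% against 50.2% and 44.2% (adjusted p = 0.0343, limma), but at -5.60 points with 10 reads required per CpG it lost the call and its sign.

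The methylation machinery had 1 of 5 promoters called higher and 0 lower (median 8.77 points), beside 6.2% and 0.304% over all promoters. The called one was TET2, a dioxygenase of active demethylation, with 67.2%, 66.1% and 61.2% in the clones, against 26.4% in R1 and 33.4% in R2 (20.02 ± 4.96 points, adjusted p = 0.0318, limma). USP7, a deubiquitinase of both UHRF1 and DNMT1, had 9.15 points (limma, not called). In gene bodies 16 of the 18 genes tested were called higher and 0 lower, beside 55% of all. Over the UHRF1 gene body 73.8%, 68.0% and 52.2% remained in the clones, against 40.2% and 38.8% in the bulk populations (10.2 ± 1.33 points, adjusted p = 0.00230, limma), a level that says nothing of its knockdown, which acts on the transcript.

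Over all promoters, 6.2% were called higher and 0.304% lower, with a median of 2.32 points. Imprinted genes had 1 of 16 promoters called higher and 0 lower (median 2.09 points), from MAGEL2 at -8.78 to SGCE at 8.61 and FAM50B at 16.4 points (adjusted p = 0.0282, limma). SGCE turned to -0.14755 points without Cl.9. Interferon and double-stranded RNA response genes had 1 of 15 called higher and 0 lower (median 2.86 points), from IRF7 at -5.69 points, or 0.0579 as a log2 ratio, to IFIT2 at 12.1 and EIF2AK2 at 15.9 points. EIF2AK2 encodes PKR, the kinase that senses double-stranded RNA, and kept 77.3%, 66.6% and 57.4% in Cl.3, Cl.6 and Cl.9, against 39.0% in R1 and 33.5% in R2 (adjusted p = 0.0391, limma). Genes of colon epithelial identity had 0 of 13 called in either direction (median 6.03 points), from MUC13 at -6.41 to MUC2 at 12.1 and CDX1 at 14.0 points.

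Olfactory receptor genes, a large clustered family, had 2 of 141 promoters called higher and 2 lower, beside 6.2% and 0.304% of all promoters, with a median of -4.95 points, from OR10A5 at -19.4 to OR51B4 at 16.1 and OR51Q1 at 20.3 points. In gene bodies 6 of 148 were called higher and 57 lower, beside 55% and 5.1% of all gene bodies. OR51I2, inside the chromosome 11 window described above, was the highest of them, with 85.8%, 81.3% and 64.8% in the clones, against 41.5% in R1 and 39.8% in R2 (21.7 ± 1.10 points, adjusted p = 0.00133, limma). Keratin-associated protein genes had 1 of 55 promoters called higher and 1 lower (median -2.64 points), from KRTAP19-3 to KRTAP9-9 at 11.02 and KRTAP4-8 at 18.1 points. Zinc finger genes of chromosome 19 had 3 of 160 promoters called higher and 0 lower (median 0.174 points), from ZNF676 at -12.4 to ZNF814 at 20.8 and ZNF132 at 22.2 points, while their gene bodies split into 86 of 241 higher and 67 lower. Reads of these families can be divided among near-identical copies.

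Clustered protocadherins had 1 of 44 promoters called higher, beside 6.2% of all promoters, and 0 lower (median 1.36 points), from PCDHA1 at -13.6 to PCDHGB1 at 14.3 and PCDHGB7 at 17.8 points. Cytosolic ribosomal protein genes, whose promoters are mostly unmethylated, had 20 promoters with enough methylation to be tested, of which 4 were called higher, beside the same 6.2%, and 0 lower (median 3.84 points). RPL3L, a muscle paralogue of RPL3, kept 93.1%, 95.2% and 87.3% in Cl.3, Cl.6 and Cl.9, against 50.9% in R1 and 49.9% in R2 (26.5 ± 4.08 points, adjusted p = 0.00484, limma). RPL22 followed at 18.3 points. The lowest, RPS7 at -2.99 points, was positive as a ratio, with the log-odds offset and without Cl.3.

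Other lists were described in gene bodies as well, beside 55% called higher and 5.1% called lower over all gene bodies. Ribosomal protein genes had 34 of 70 called higher and 0 lower, HOX genes 16 of 36 and 0, interferon response genes 15 of 25 and 1, and germline genes 11 of 27 and 4. Clustered protocadherins had 9 of 53 called higher and 0 lower, imprinted genes 7 of 22 and 4, genes silenced in colorectal cancer 7 of 24 and 1, and colon identity genes 5 of 19 and 1. Wnt antagonists had 0 of 9 called higher and 1 lower, and keratin-associated protein genes 1 of 6 and 0.

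The authors also called domains anew in each Knockdown library, and what a label covered differed between the groups. Regions labelled as unmethylated had a mean mC of 16.02%, 16.6% and 16.7% in Cl.3, Cl.6 and Cl.9, but 22.7% in R1 and 23.002% in R2. Called PMDs had 66.5%, 66.9% and 55.7% in the clones, but 51.9% in R1 and 51.1% in R2, and neither set of values overlapped. Called PMDs covered 972, 1627 and 2007 Mb in the 3 clones, with R1 (1378 Mb) and R2 (1368 Mb) between Cl.3 and Cl.6 (exact permutation p = 0.8, two-sided). Called unmethylated regions covered 640, 774 and 1211 Mb in Cl.3, Cl.6 and Cl.9, all less than R1 (1355 Mb) and R2 (1412 Mb), with an exact permutation p = 0.2, the smallest this design allows. The called classes overlap. Without base pairs also called in another class, these regions covered 560, 667 and 856 Mb in the clones, against 1202 Mb in R1 and 1236 Mb in R2. Called HMDs covered 895 and 247 Mb in Cl.3 and Cl.6 but under 2 Mb in each of Cl.9, R1 and R2. Since each list was called separately, the lengths moved with how much was called.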

How the data were processed

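The authors bisulfite-converted DNA with an unmethylated lambda spike, sequenced it and aligned it to hg38 with Meth10X. They deposited raw counts per CpG and library, methylated and covering reads, in 3 tables (30 count columns, 20 of them used). They also deposited domain lists per library (MethylSeekR, bedtools 2.25.0), and the lists of the Baseline and Knockdown libraries were used. Conversion rates and the handling of duplicates were not given in the sources used here. Samples were grouped by their titles. Members and gene lists were chosen with earlier results of these data known.

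CpGs with at least 5 reads in all 5 Knockdown libraries were averaged. Windows (100 kb), promoters and gene bodies (GENCODE 44, 20033 protein-coding genes) needed 5 CpGs and 50 reads per library. Levels were tested with edgeR 4.0.16 (glmQLFTest, R 4.3.3). mC minus the library mean was tested with limma 3.58.1 where the mean of group means was at least 20%. Benjamini-Hochberg adjusted p under 0.05 was called. Named features were the largest called differences whose tested values did not overlap between groups (10 promoters, 5 gene bodies or windows in each direction), and up to the 2 highest and 2 lowest members of each gene list. On simulated data with 200 promoters changed by 15 points, limma recovered 77% with 3.14% of calls false. With 200 of 25802 windows changed it recovered 100% with 9.50% false, or 4.39% in windows of at least 100 CpGs. The simulated libraries had equal noise, with no shift in level between libraries and no added spread between clones. There limma was run on levels that were not centred. These rates therefore cannot be carried over to the centred tests of the real libraries. Alternatives covered coverage, scale, centring, filters and each library left out. A named window and a gene-list member are not reported here.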

Additional observations from a re-analysis of the deposited data

How the results depend on the processing

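No paired analysis was possible because the groups compared share no replicate number (3, 6 and 9 against 1 and 2). Of 113 alternatives to the values per library 108 kept direction and side of the threshold, which none could pass. The rest reversed: the density ratio at high baseline (0.0185), the promoter ratio to the library mean (0.0473), the fully unmethylated share (-0.951, and -3.74 to 0.718 when a library was left out, positive without Cl.3 or Cl.6) and PMD length (162 Mb, -73.7 to 444 Mb, negative without Cl.9).

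Counts of calls moved with scale and with single libraries. Windows in level ran from 0 to 26841 higher when a library was left out. Centred windows were 3342 higher with the log-odds offset, 866 with median centring, 0 in both directions as a ratio, 7314 lower with no minimum level, 690 lower at mean levels of 30 to 70%, 27423 higher and 17820 lower at 20 kb, and 0 to 12628 higher and 0 to 5284 lower with a library left out. With 100 or more CpGs per window, an alternative chosen after seeing the data, 7312 were higher and 4572 lower. Promoters in level were 731 higher with limma, 721 higher and 1 lower at 10 reads, and 0 to 12145 higher and 0 to 28 lower with a library left out. Centred promoters were 287 and 9 as a ratio, 142 and 42 with median centring, 66 lower with no minimum, 334 and 55 as change from Baseline (chosen after seeing the data), and 162 to 654 higher and 1 to 231 lower with a library left out. Gene bodies were 6515 higher with the offset, 862 and 33 as a ratio, 1054 and 1654 with median centring, 359 lower at levels of 30 to 70%, and 5949 to 11571 higher and 204 to 1302 lower with a library left out. The cause of these moves was not tested, except that fewer libraries or features enter some of them. Left-out fits with 1 bulk library assume that it varies like the clones.

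Of 945 alternatives to the named features 14 reversed, 6 of them in items not reported here. As a change from Baseline APCDD1 was at 4.80 points. With the log-odds offset RPS7 was at 0.0232, as a log2 ratio RPS7 was at 0.337 and IRF7 at 0.0579, and at 10 reads RUNX3 was at -5.60 points. With a library left out RPS7 ran from -8.08 to 0.23975 points, SGCE from -0.14755 to 17.1 and HOXC8 from -28.0 to 7.81. The comparison of repeat-masked with unmasked CpGs was not run, since the reference given marks no repeats. A window of 5 CpGs and 50 reads limits the precision of the smallest regions, and the shallower Cl.3 and Cl.6 (median 11 and 13 reads) limit single CpGs.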
